A study of Mus musculus with 6 samples.

Results

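Nr2f2, Prox1, Mmrn1, Lyve1, Ackr3 and Vcam1 are 6 genes tied to the identity of veins and lymphatic vessels. H3K9ac, a histone acetylation that marks active regulatory DNA, was examined at every peak that the deposited table assigns to them, at promoters and away from them. This gave 12 of 17901 peaks, for 5 of the 6 genes, and Ackr3 had no row. The peaks enter by gene name. The genes were chosen by earlier results of these data, since all of them but Ackr3 have H3K9ac peaks in these libraries. They were also chosen with the WT and CSE-KO H3K9ac values of Mmrn1 and Vcam1 already known. The counts of members given here are therefore descriptions, and the Mmrn1 and Vcam1 differences are not independent evidence.

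The mark was measured by CUT&RUN, in which a nuclease tethered to an antibody releases the DNA around the mark, in endothelial cells isolated from mouse lung. There were 3 libraries from WT mice, labelled Cre-negative, and 3 from CSE-KO mice, labelled Cre-positive. The missing enzyme, CSE (cystathionine gamma-lyase, gene Cth), makes cysteine, and the comparison asks how its loss bears on acetylation at endothelial loci. The labels used here name neither the Cre driver nor the strain, age or sex of the mice, nor whether the libraries came from separate animals. The p-values are thus set by the variation among these 6 libraries, part of which may be technical.

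Veins and lymphatic vessels share an origin. Nr2f2 encodes COUP-TFII, a nuclear receptor that maintains venous identity and restrains Notch signalling. In a subset of venous endothelial cells it acts with SOX18 to switch on Prox1, the homeobox factor that sets lymphatic fate. Lyve1, a hyaluronan receptor, and Mmrn1, an extracellular matrix protein also stored in platelets, are surface and secreted products of lymphatic endothelium. Ackr3 is an atypical chemokine receptor that takes up CXCL12 and adrenomedullin, and Vcam1 is an adhesion molecule for leukocytes that is enriched on venous and activated endothelium. Lyve1 is also made by some macrophages, Mmrn1 by megakaryocytes and Vcam1 by stromal cells.

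Total counts over the peaks ranged from 313610 (WT replicate 2) to 676056 in WT and from 679938 to 1173016 in CSE-KO, so the CSE-KO libraries were all the deeper ones, and the part of depth in the results below was not tested beyond the scaling to library size. The names of the deposited normalized columns carry a prefix that differs between WT and CSE-KO, and a batch that follows it cannot be told apart from the genotype. No row was assigned to Cth, the deleted gene, so it gives no check of the labels. All 20 endothelial marker genes examined had a peak, with a summed level of 4073 to 4482 CPM (library-size-normalised counts, with edgeR's TMM scaling) in WT and 3767 to 4246 in CSE-KO. Of 15 leukocyte and macrophage markers, 2 (Csf1r and Cx3cr1) had a peak, and Ptprc, Spi1 and Lyz2 had none (26.7 to 74.3 CPM in WT libraries and 37.2 to 52.6 in CSE-KO). One of 10 megakaryocyte and platelet markers, Itga2b, had a peak (41.1 to 69.7 and 46.8 to 77.0 CPM), while Pf4 and Gp9 had none. Among 15 fibroblast and mural markers, Col1a1 alone had a peak (32.3 to 46.0 and 21.9 to 50.8 CPM). Of 15 epithelial markers 6 had a peak, with 528 to 593 CPM in WT libraries and 508 to 559 in CSE-KO, and Nkx2-1 and Sftpc had none. The ranges of the 2 groups overlapped for all 5 lists. A marker said to have no peak is one without a row in the deposited table. Its 17901 rows carry identifiers up to 23867, so some numbered peaks are absent from it.

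The 12 peaks held 0.0781% of all counts. None carried a promoter annotation in the deposited table. Just 2, at Mmrn1 and Vcam1, were centred no more than 1 kb from a start, and 2 covered the start itself (Lyve1 and Vcam1). The RefSeq bases just upstream of the start were compared for Mmrn1, Prox1, Nr2f2 and Ackr3. No such sequence was available for Lyve1 and Vcam1, whose peaks cover the start. No row of the deposited table overlapped any of the windows compared. Those of Mmrn1 and Prox1 are shown because Mmrn1 had the largest fold change between the groups and Prox1 a peak annotated as a CpG island. Each run is the 250 bases before the start (RefSeq, GRCm38.p6), 5′ to 3′ on the gene's strand, with CpG dinucleotides in capitals.

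Mmrn1, chr6:60944067-60944316, plus strand: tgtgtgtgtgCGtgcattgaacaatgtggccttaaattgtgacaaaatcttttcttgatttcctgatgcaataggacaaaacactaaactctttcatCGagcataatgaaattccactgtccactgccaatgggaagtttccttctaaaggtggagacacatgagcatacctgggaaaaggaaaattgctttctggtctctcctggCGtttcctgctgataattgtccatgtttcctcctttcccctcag
Prox1, chr1:190170828-190171077, minus strand: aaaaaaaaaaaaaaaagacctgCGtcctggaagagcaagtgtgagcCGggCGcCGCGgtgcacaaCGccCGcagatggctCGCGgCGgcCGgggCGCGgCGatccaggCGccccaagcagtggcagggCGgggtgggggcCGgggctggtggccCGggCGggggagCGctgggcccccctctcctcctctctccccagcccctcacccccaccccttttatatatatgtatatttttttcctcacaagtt

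The Mmrn1 window held 3 CpG dinucleotides and 42.4% G and C, against a median of 6 CpG over 32851 mouse windows of this length. The Prox1 window held 20 CpG and 64.8% G and C, which placed it above 82.1% of windows by CpG count. The window before the upstream Nr2f2 start held 1 CpG, and that of Ackr3 held 7. The closest Nr2f2 row lay 7988 bp from that upstream start. No window was compared for the start inside the gene, to which the main Nr2f2 peak is annotated. The letters AACAAT, a core bound by SOX factors, were searched on both strands and occurred once in the Mmrn1 window, in neither Prox1 window, and in 9.42% of all windows. AGGTCA, a half-site of nuclear receptors, was found in none of the member windows compared and in 14.0% of all. TGTTTA, a forkhead core, occurred once in the window of the second Prox1 start and in 12.0% of all. A match of letters is a description and not a binding site.

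By level, 2 Nr2f2 peaks stood far above the other 10 member peaks. Per kb of peak in WT libraries, the Nr2f2 peak in exon 2 had 186 CPM per kb, above 99.8% of all rows, and the one past the end of the gene had 147 CPM per kb, above 99.4%. The median of all rows was 52.5 CPM per kb. The other 10 peaks had 31.7 to 57.2 CPM per kb in WT, and lay above 11.2% to 58.5% of all rows. These 2 Nr2f2 peaks stood apart by more than their SDs from each other and from the rest in WT. Below them, each peak lay within the SDs of the next in the order, from Lyve1 14.2 kb upstream (57.2 ± 14.6 CPM per kb, SD, n = 3) to Vcam1 60.0 kb upstream (31.7 ± 21.4).

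**Figure D1:**
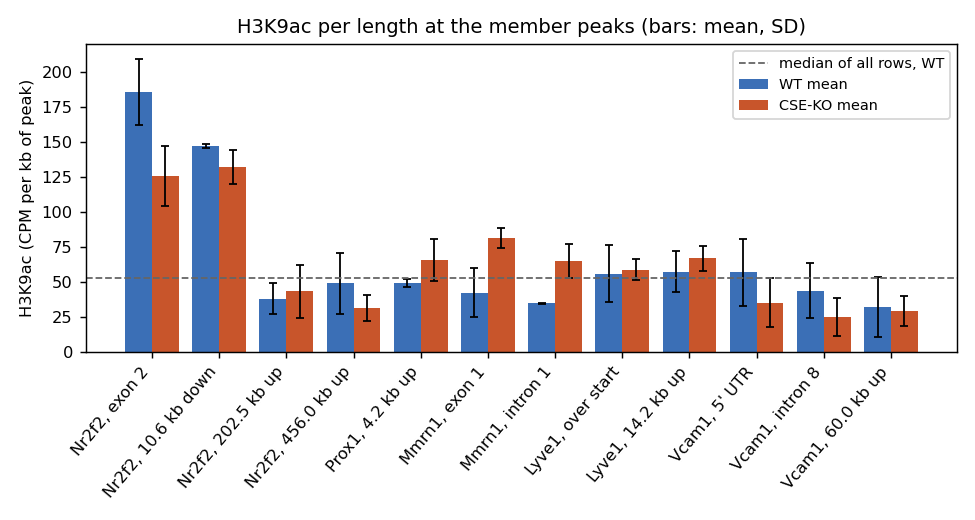
H3K9ac level per kb of peak (vertical axis, CPM per kb) at the 12 peaks of 5 genes, as mean and SD of 3 WT (blue) and 3 CSE-KO (orange) libraries, with the WT median of all rows as a dashed line. The 2 Nr2f2 peaks in and just past the gene stand at 186 and 147 CPM per kb in WT, and the other peaks lie near or below the line of 52.5 in WT.

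Nr2f2, the venous regulator, carried 4 peaks (6.28% of all genes with a row have 4 or more). Its main peak lay in exon 2 of NM_009697 (chr 7, 70357466 to 70358758, GRCm38, 1293 bp), centred 2481 bp downstream of the nearest start. It had 265, 249 and 206 CPM in WT replicates 1 to 3 and 195, 149 and 143 CPM in CSE-KO replicates 1 to 3, an order kept for all values by library that follow. The groups did not overlap, though CSE-KO replicate 1 and WT replicate 3 were close to each other. The mean was 240 ± 30.8 CPM in WT against 162 ± 28.1 in CSE-KO (SD, n = 3 each). The log2 fold change of CSE-KO against WT (log2FC) was -0.54 (SE, standard error, 0.16; 95% interval -0.86 to -0.22). It did not pass the edgeR test over all peaks (adjusted p = 0.37). In bulk libraries such as these, fewer cells that carry the mark and less of the mark per cell cannot be told apart.

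The other Nr2f2 peaks lay outside the gene. The closest, 10.6 kb downstream of the same start (one inside the gene) and past the gene's end (chr 7, 70349659 to 70350289), had 91.9, 93.7 and 92.2 CPM in WT libraries and 75.3, 90.6 and 84.0 in CSE-KO. The groups did not overlap there either, but the highest CSE-KO library was close to the WT values. Its log2FC was -0.16 (SE 0.22, edgeR adjusted p = 0.91), and -0.081 without CSE-KO replicate 1. A row 1428 bp further on, assigned to the long noncoding RNA Gm29683, had 57.6 ± 21.9 CPM in WT libraries and 55.8 ± 8.69 in CSE-KO (SD, n = 3 each), so the 2 groups overlapped there.

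Far upstream of Nr2f2, the nearest start names a peak's position only. The peak 202.5 kb upstream (chr 7, 70568846 to 70569743) had 37.1, 42.0 and 23.0 CPM in WT libraries and 57.5, 33.6 and 24.6 in CSE-KO (log2FC 0.27, SE 0.35). CSE-KO replicate 1 alone was above the WT range, and without it the value turned to -0.19. The peak 456.0 kb upstream (chr 7, 70822433 to 70823154) had 35.6, 19.4 and 51.0 CPM in WT libraries and 26.2, 14.6 and 26.1 in CSE-KO. Its groups overlapped, with a log2FC of -0.71 (SE 0.38, edgeR adjusted p = 0.74), which was -0.37 without WT replicate 3.

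Prox1, the regulator that sets lymphatic fate, had a single peak, and none at its start. The peak lay 4170 bp upstream of the start, over a CpG island and within the intron of Prox1os, a noncoding RNA that overlaps the Prox1 start (chr 1, 190174492 to 190175503, 1012 bp). It had 47.5, 48.5 and 52.7 CPM in WT libraries and 49.1, 77.5 and 72.4 in CSE-KO. CSE-KO replicate 1 lay within the WT range and the other 2 CSE-KO libraries lay above it. The log2FC was 0.39 (SE 0.28, 95% interval -0.16 to 0.94, edgeR adjusted p = 0.81). The value was 0.59 without CSE-KO replicate 1. Signal in the shared region cannot be assigned to Prox1 or to Prox1os.

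Mmrn1, the multimerin gene of lymphatic endothelium, had the largest log2FC of the members. Its 2 peaks lay at the 5′ end of the gene and both were higher in CSE-KO, with no overlap between the groups. The first lay in exon 1, beginning 306 bp downstream of the start (chr 6, 60944623 to 60945368, 746 bp), and the second in intron 1 (chr 6, 60946871 to 60947817, 947 bp), centred 3027 bp downstream. The exon 1 peak had 19.3, 45.2 and 29.6 CPM in WT libraries and 66.9, 58.5 and 56.5 in CSE-KO. The intron 1 peak had 32.6, 32.3 and 32.9 CPM in WT libraries and 73.6, 59.9 and 50.7 in CSE-KO. WT varied widely at the first peak and hardly at the second, where the raw counts were 22, 10 and 20.

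At neither Mmrn1 peak did the difference pass over all peaks. The exon 1 peak had a log2FC of 1.06 (SE 0.32, edgeR adjusted p = 0.37) and the intron 1 peak 0.93 (SE 0.30, edgeR adjusted p = 0.45). In the authors' deposited table the log2FC values of the same peaks were 1.02 (adjusted p = 0.50) and 0.90 (adjusted p = 0.55). The share of Mmrn1 counts in the exon 1 peak was 47.6% ± 10.6 in WT libraries and 49.9% ± 2.59 in CSE-KO libraries (SD, n = 3 each).

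Lyve1, the hyaluronan receptor, carried 2 broad peaks of like level. One covered the start and reached 2011 bp into the gene (chr 7, 110860942 to 110862954, 2013 bp, wider than 96.0% of rows). It had 72.7, 155 and 109 CPM in WT libraries and 126, 101 and 127 in CSE-KO. WT replicate 2, the shallowest library, was the highest of the 6 and WT replicate 1 the lowest, so the CSE-KO values lay within the WT range. The log2FC was 0.16 (SE 0.21, 95% interval -0.26 to 0.59) and turned to -0.10 without WT replicate 1, while it was 0.39 without WT replicate 2. An intergenic row 13170 bp from this peak, assigned to Rnf141, had 27.3 ± 6.82 CPM in WT libraries and 41.4 ± 3.30 in CSE-KO (SD, n = 3 each). Its groups did not overlap, and it did not pass (log2FC 0.55, SE 0.34, edgeR adjusted p = 0.78).

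The other Lyve1 peak lay 14.2 kb upstream, inside intron 19 of the neighbouring gene Mrvi1 (chr 7, 110876380 to 110878001, 1622 bp). It had 120, 80.8 and 77.3 CPM in WT libraries and 91.4, 118 and 114 in CSE-KO. The groups overlapped, with a log2FC of 0.17 (SE 0.21, 95% interval -0.25 to 0.60, edgeR adjusted p = 0.91). The name Lyve1 comes from the nearest start. Leaving out WT replicate 1 gave 0.44, and leaving out the third WT library gave 0.03.

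Vcam1, the leukocyte adhesion molecule, had 3 peaks with small raw counts, and its values were lower in CSE-KO at the 2 that were tested. The peak over the start (5′ UTR, chr 3, 116129296 to 116129752, 457 bp) had 23.7, 16.2 and 37.9 CPM in WT libraries and 24.5, 14.6 and 8.69 in CSE-KO, from raw counts of 5 to 29. The peak in intron 8 (chr 3, 116113945 to 116114697, 753 bp), annotated as a low-complexity AT-rich stretch, had 43.0, 16.2 and 39.5 CPM in WT libraries and 22.8, 26.3 and 7.24 in CSE-KO. The groups overlapped at both. The log2FC was -0.68 (SE 0.45, edgeR adjusted p = 0.79) over the start and -0.86 (SE 0.42, edgeR adjusted p = 0.69) in intron 8. The former was -0.32 without WT replicate 3 and -1.19 without CSE-KO replicate 1, and the latter -0.52 without CSE-KO replicate 3, the lowest library.

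The remaining Vcam1 peak, 60.0 kb upstream (chr 3, 116189520 to 116189873, 354 bp), had raw counts of 3, 6 and 6 in WT and 11, 10 and 5 in CSE-KO. It did not pass the filter on low counts and was not tested. Its means were 11.2 ± 7.56 and 10.4 ± 3.81 CPM (SD, n = 3 each).

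Ackr3, the atypical chemokine receptor, had no row, and no row overlapped the gene (chr 1, 90203980 to 90215724, RefSeq GRCm38.p6). The nearest rows were assigned to Asb18, 152 kb to the left, and Cops8, 224 kb to the right. The row identifiers follow position along each chromosome, and those 2 rows carry consecutive identifiers, 695 and 696. The identifiers of the table reach 23867, and 3 are missing between rows of a single member gene, 1 at Vcam1 and 2 at Nr2f2. Those peaks are not analysed here.

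**Figure D2:**
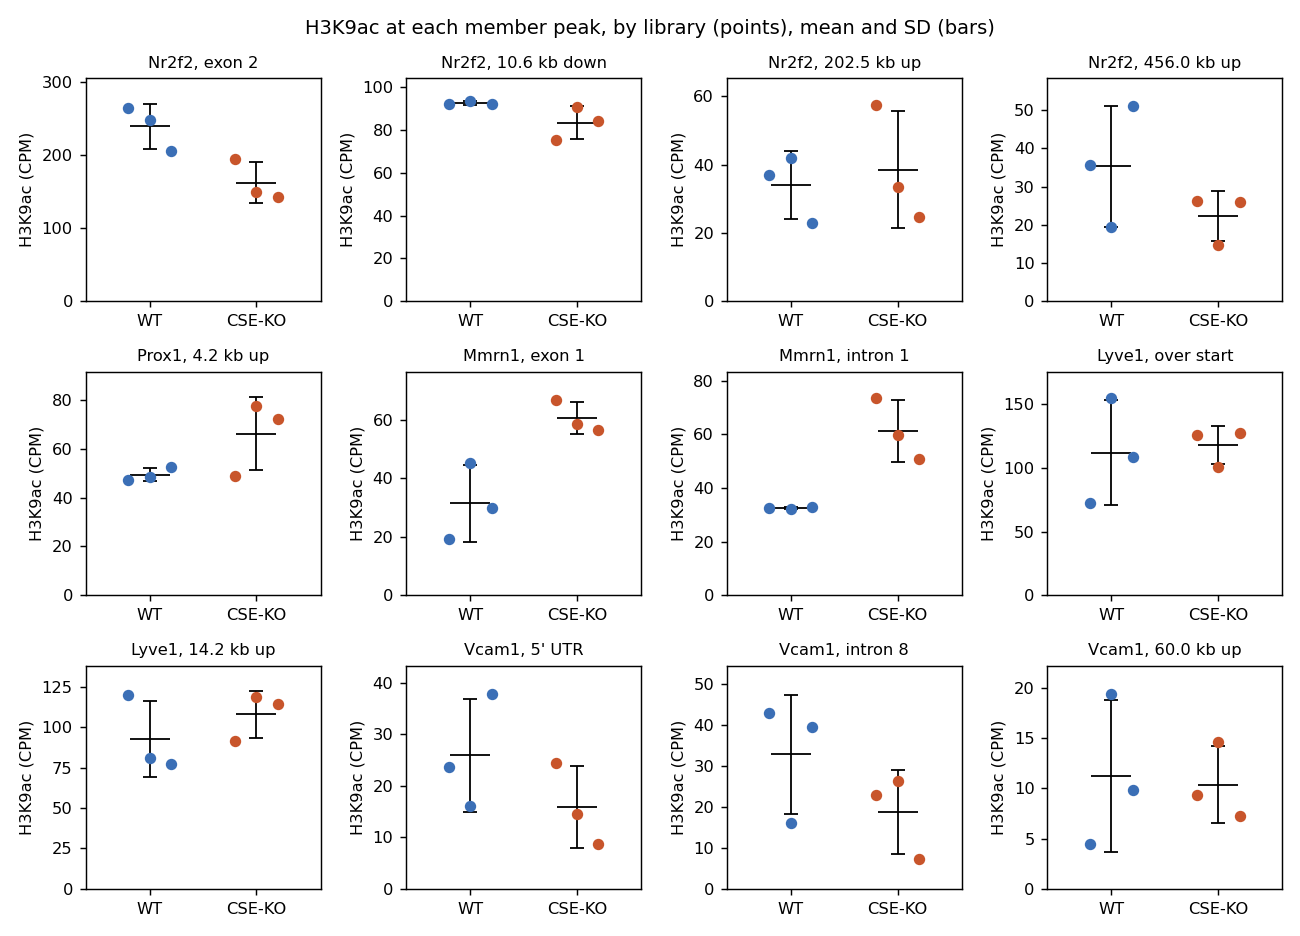
H3K9ac in CPM (vertical axes, each from 0) in the 3 WT (blue) and 3 CSE-KO (orange) libraries at each of the 12 peaks, with mean and SD. The groups are apart at both Mmrn1 peaks, where CSE-KO is higher, and at the Nr2f2 peaks in exon 2 and 10.6 kb downstream, where WT is higher, and overlap elsewhere.

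Of the 12 peaks 11 were tested and none passed at an adjusted p of 0.05 (edgeR quasi-likelihood test, Benjamini-Hochberg over 16134 peaks, adjusted p from 0.37 to 0.91). Over all tested peaks, 14 passed, or 0.0868%. At an unadjusted p under 0.05 there were 4 member peaks by edgeR (both Mmrn1 peaks, Nr2f2 exon 2 and Vcam1 intron 8), 4 by voom and 3 by the Wald test of DESeq2, and neither of these tools called any after adjustment. That threshold was met by 7.08% of all tested peaks in edgeR. The groups did not overlap at 4 of the 11 member peaks and at 13.0% of all tested peaks. Those 4 member peaks belong to Mmrn1 and Nr2f2 alone. Mmrn1 and Vcam1 were listed with their values known, so these counts do not measure an excess among the members. The fitted log2FC values were below 0 at 5 member peaks and above 0 at 6, with a median of 0.16 beside -0.00034 for all peaks.

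**Figure D3:**
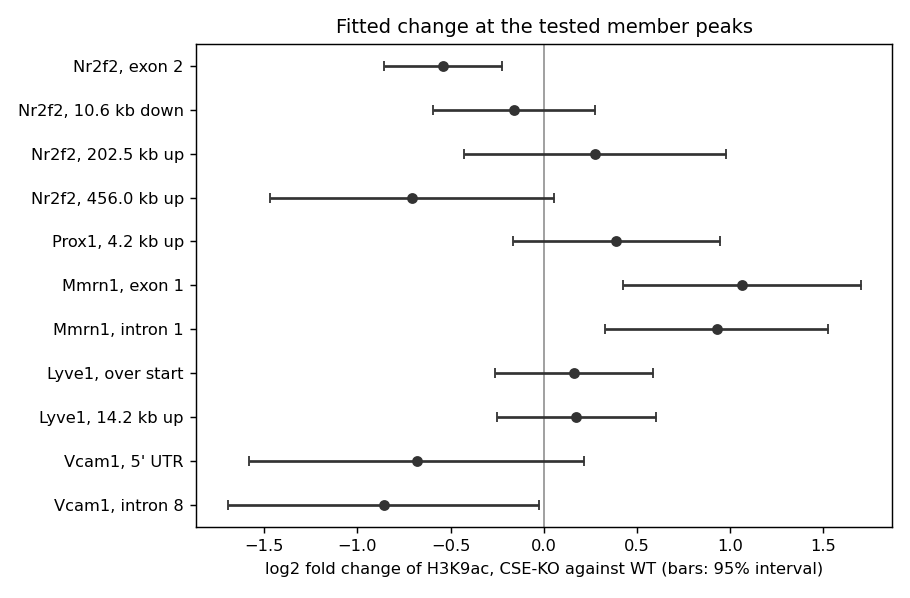
Fitted log2FC of H3K9ac in CSE-KO against WT (horizontal axis) with its 95% interval at the 11 tested peaks. The intervals of both Mmrn1 peaks lie above 0 and those of Nr2f2 exon 2 and Vcam1 intron 8 below it, before adjustment over all peaks, and the others include 0.

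When the counts of all peaks of a gene were summed, Mmrn1 rose in CSE-KO. It went from 51.9, 77.1 and 62.4 CPM in WT to 141, 118 and 108 CPM in CSE-KO, or from 63.8 ± 12.7 to 122 ± 17.3 (SD, n = 3 each). The log2FC was 1.00 (SE 0.22, 95% interval 0.56 to 1.45, edgeR adjusted p = 0.039 over 10569 genes). Leaving out single libraries gave an edgeR adjusted p of 0.31 (WT replicate 1), 0.032 (WT 2), 0.28 (WT 3), 0.52 (CSE-KO 1), 0.12 (CSE-KO 2) and 0.077 (CSE-KO 3), so of these fits only the one without WT 2 kept the call. DESeq2 gave 0.23. Over all genes, 13 passed, or 0.123%, 5 higher and 8 lower in CSE-KO. Since Mmrn1 was listed with its promoter value known, the call is a description of these 6 libraries.

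The other summed genes did not pass. Nr2f2 had 430, 402 and 371 CPM in WT libraries and 356, 288 and 279 in CSE-KO, with no overlap of the groups (log2FC -0.37, SE 0.12, edgeR adjusted p = 0.52). Vcam1 had 71.2, 51.4 and 87.0 CPM in WT libraries and 57.1, 55.6 and 23.3 in CSE-KO, with groups that overlapped (log2FC -0.63, SE 0.28, adjusted p = 0.68). Lyve1 had 193, 235 and 186 CPM in WT libraries and 219, 220 and 243 in CSE-KO, also with overlap (log2FC 0.17, SE 0.14, adjusted p = 0.87). Prox1, with a single peak, had 0.40 (SE 0.27, adjusted p = 0.83). The groups did not overlap for 2 of the 5 genes, Mmrn1 and Nr2f2, and for 12.5% of all genes tested. With Mmrn1 listed when its values were known, this count is a description.

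**Figure D4:**
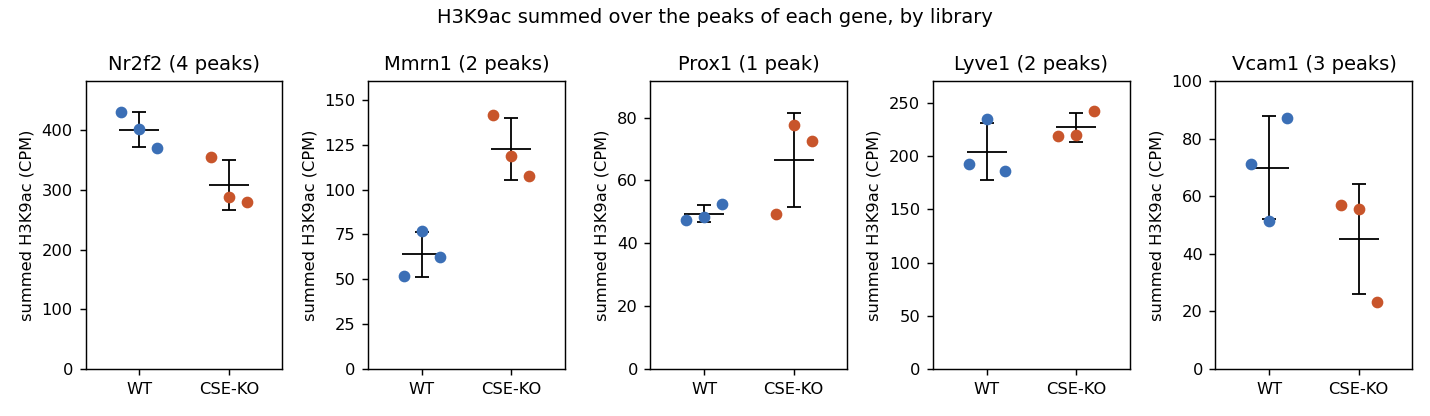
H3K9ac summed over the peaks of each gene, in CPM (vertical axes, each from 0), in 3 WT (blue) and 3 CSE-KO (orange) libraries with mean and SD. Mmrn1 lies at 51.9 to 77.1 CPM in WT libraries and 108 to 141 in CSE-KO, and Nr2f2 at 371 to 430 and 279 to 356.

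**Figure D5:**
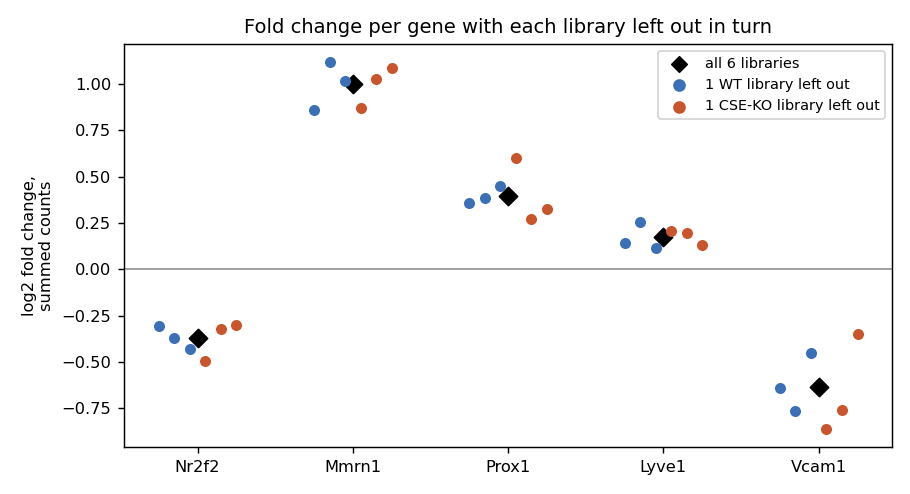
Log2FC of the summed counts of each gene (vertical axis) with all 6 libraries (diamonds) and with 1 WT (blue) or 1 CSE-KO (orange) library left out. Each gene kept its direction in all of these fits, with Mmrn1 between 0.86 and 1.12 and Vcam1 between -0.86 and -0.35.

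Other genes linked to venous and lymphatic vessels were set beside the members, though some, such as Cxcl12 and Cxcr4, are not confined to them. The list held 32 genes such as Ephb4, Flt4, Nrp2, Sox18 and Tek, of which 25 had a row and 22 a tested peak. Tek, Tie1, Sox18 and Emcn on this list are also among the endothelial markers above. None of its 47 tested peaks passed by edgeR, DESeq2 or voom. An unadjusted p under 0.05 by edgeR was found for 2 of them, and for 7.08% of all tested peaks. The median log2FC was 0.04, beside -0.00034 for all peaks, and 19 of 47 lay below 0. The peaks named next were picked from the 47 for the smallest p. An intronic peak of Tek, the angiopoietin receptor, had 11.2 ± 4.51 CPM in WT libraries and 25.2 ± 3.56 in CSE-KO (SD, n = 3 each; log2FC 1.27, SE 0.49, edgeR adjusted p = 0.61). In WT this mean was as low as that of the untested Vcam1 peak 60.0 kb upstream (11.2 ± 7.56 CPM), so the ratio rests on few reads. Tie1, the partner receptor of Tek, had a log2FC of 0.70 (SE 0.29, edgeR adjusted p = 0.64) in intron 1, centred 216 bp from its start. Nrp2, a co-receptor for VEGF-C, had 0.84 (SE 0.46, edgeR adjusted p = 0.74) in intron 2. Summed over their peaks, none of the 23 tested genes passed (lowest adjusted p = 0.66).

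The list of arterial genes, the fate opposed to that of Nr2f2, held 20 genes, of which 12 had a row and 11 a tested peak. None of the 29 tested peaks passed by any of the 3 tools. An unadjusted p under 0.05 by edgeR was found for 4 of them, beside 7.08% of all tested peaks. Of these peaks 14 lay below 0, with a median log2FC of 0.01. The peaks named here had the smallest p of the list. Notch4, an arterial Notch receptor, had -0.68 (SE 0.27) in intron 1, centred 274 bp from its start. Tm4sf1 had -0.28 (SE 0.13) in intron 3. An intergenic peak 386584 bp from the start of Efnb2, the arterial ephrin, had 0.64 (SE 0.27). The edgeR adjusted p of all these named peaks was 0.64 or more. The 11 arterial genes with summed counts did not pass either (lowest adjusted p = 0.68).

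Across the 6 libraries, the peaks most like the main peak of each member were found among 4610 peaks with a mean count of 50 or more. For Nr2f2 exon 2 they were intergenic 1700011L22Rik (Pearson's r = 0.999 of log2 CPM) and Vcp intron 1 (0.989). For Mmrn1 intron 1 they were the promoter of Gphn (0.971) and intron 1 of Adsl (0.966). For Lyve1 at the start they were Arl5b (0.996) and Ppp1r37 (0.989), for Prox1 Banf1 (0.975) and Cdc27 (0.944), and for Vcam1 intron 8 Atg101 (0.987) and Cdk4 (0.985). With 6 libraries that share depth differences, and the best of many peaks picked, these values are a description only.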

How the data were processed

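The deposited table gives a raw count per peak and library, in whole numbers made by the authors. Tools named in the submitters' processing notes are Trimmomatic 0.39, STAR 2.7.11a, Picard 3.1.1, featureCounts (no version) and DESeq2 1.36.0, with no settings. Peak calling and the handling of multi-mapping reads are not stated there. The notes name mm39, but the starts implied by the table fall within 1 bp of the RefSeq gene start of GRCm38.p6 for 10 of the 12 rows (the other 2, both Nr2f2, use a start inside the gene), so coordinates are given on GRCm38. Normalized and RPKM columns, and the authors' own fold changes, are written with decimal commas and entered no test.

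Rows whose symbol was a member were taken. Counts of all peaks, and counts summed over the peaks of each gene (17 rows without a symbol left out), were fitted with edgeR 4.0.16 in R 4.3.3. Low counts were removed by filterByExpr (minimum count 10), libraries were scaled by TMM, and the group effect was tested two-sided by quasi-likelihood (glmQLFit, glmQLFTest), with Benjamini-Hochberg adjustment and a threshold of 0.05. Standard errors come from the F statistic and intervals cover 95%. Tested peaks had a median of 32 counts. Replicates differed by more than sampling noise (chi-square over degrees of freedom of 1.87 to 2.15), and all 6 libraries were kept. The fit was tested on simulated data.

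Values per library are given in full for the main peak of each member, for peaks near a start and for peaks with an unadjusted p under 0.05, and were extended to the remaining peaks. Up to 3 peaks per comparison list with the smallest p are named. The members and lists were chosen with earlier results of these data known. Alternatives were RLE factors, library size alone, dropping the filter, requiring a mean count of 50, DESeq2 1.42.0, voom in limma 3.58.1, a replicate block and each library left out.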

Additional observations from a re-analysis of the deposited data

How the results depend on the processing

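No member peak passed under any of the 13 alternatives. At single peaks the direction turned in 2 cases, Lyve1 at the start (log2 fold change -0.10 to 0.39 with single libraries left out, below 0 without WT replicate 1) and Nr2f2 202.5 kb upstream (-0.19 to 0.50, below 0 without CSE-KO replicate 1). The other 9 tested peaks and the 5 summed genes kept their direction in every fit that tested them. The summed Mmrn1 value was 0.99 with the DESeq2 Wald test (adjusted p = 0.23) and 0.86 to 1.12 with single libraries left out, and of these 6 fits only the one without WT replicate 2 called it. It was also called with RLE factors, library size alone, both filter settings, voom and the replicate block (adjusted p over all alternatives 0.013 to 0.52). The count of member genes called on summed counts was thus 0 with DESeq2 and 0 to 1 with single libraries left out. Fits with 1 library left out rest on 2 libraries in 1 group.

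Over all peaks, 14 calls became 8 with a mean count of 50 or more, 7 with DESeq2 and 6 to 13 with single libraries left out (6 without CSE-KO replicate 1, 7 without WT 3, 8 without CSE-KO 3). Over all genes on summed counts, 13 became 8, 5 and 5 to 9. The cause of these changes was not tested. The filter on a mean count of 50 leaves no value for 7 of the 11 tested peaks, nor for Prox1 and Vcam1 on summed counts. With levels per kb or as deposited RPKM, the log2 ratios of mean level kept their direction for all 5 genes. That of Vcam1 was -0.63 in CPM, -0.57 per kb and -0.56 as RPKM, and that of Mmrn1 0.93, 0.93 and 0.94. For Prox1, with a single peak, the ratio per kb is the same by construction. The authors' annotation alone gives no promoter peak, so no share.

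Whether the replicate numbers pair the libraries cannot be settled from 3 libraries per group. Deviations of same-numbered libraries correlated at 0.0088 to 0.063, and those of other pairs at -0.0305 to 0.0171. Not every library correlated best with its own number. With the replicate block, 15 peaks and 17 summed genes were called, none of the member peaks, and Mmrn1 on summed counts (log2 fold change 0.99, adjusted p = 0.013).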
